A study of Mus musculus with 12 samples.

Results

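The 10 genes described here, Mest, Peg10, Sgce, Peg3, Plagl1, Grb10, Igf2r, Snrpn, Impact and Nnat, are imprinted genes outside the X chromosome. They were chosen by symbol, and all 10 were found among the 55487 genes of the deposited gene table. RNA-seq was made from female mouse embryonic stem (ES) cells, a C57BL6/CAST hybrid, so that many reads can be given to a parental chromosome by the single-base differences they cover. The 12 libraries form 4 groups of 3: wild type and SIRT7-KO (knockout of the sirtuin gene Sirt7) cells at day 0 and both genotypes at day 7. The labels' treatment protocol has leukaemia inhibitory factor (LIF, which keeps ES cells undifferentiated) present up to day 0 and taken away afterwards. A separate treatment label on each sample goes against this: it reads LIF for 2 of 6 wild type and 4 of 6 knockout libraries and None for the others, the same on both days. Groups were therefore taken from genotype and day, and the treatment label is unequal between the genotypes. The labels do not say whether the replicates were separate cultures or clones, so p-values measure only the spread between these libraries, which may be technical. They also do not say which strain is genome 1 or which strain was the mother, so that no read can be called maternal or paternal here.

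An imprinted gene carries DNA methylation that was set in the egg or sperm at a control region, and as a result it is transcribed mainly from the copy inherited from a single parent. The mark is copied at each cell division by the maintenance methyltransferase Dnmt1 with its partner Uhrf1. It is guarded in early embryos and ES cells by the zinc finger protein Zfp57 with Trim28, and cultured ES cells are known to lose it at some loci. Of the 10 genes, Grb10 and Igf2r are known mainly as maternally expressed and the others as paternally expressed, although Grb10 is paternally expressed in neurons and Igf2r can be transcribed from both copies before its antisense RNA Airn is switched on.

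Library totals ran from 25190483 to 69079368 counts, and 29.7% to 32.0% of the reads of a library in the genome-split table could be given to a genome. Sirt7 itself was at 8.03 to 15.3 CPM (read counts scaled to a common library size) in the 6 wild type libraries and at 16.9 to 25.1 CPM in the 6 libraries labelled knockout. On the sum of the genome-split table the ranges overlapped, at 17.1 to 21.8 CPM and 18.1 to 38.1 CPM. These counts go against the label, although a gene count does not tell whether a transcript is intact, so the text writes "labelled knockout". Every difference by genotype would change sign if the labels were exchanged. The 7 pluripotency markers summed to 6681 to 7059 CPM at day 0 and to 325 to 357 CPM at day 7, and all 7 fell in both genotypes. At day 7 the 6 mesoderm markers summed to 1875 to 2402 CPM, against 5.93 to 8.67 CPM at day 0, and all 6 rose. Of the 8 fibroblast markers 7 rose and 1 fell in each genotype. Of 5 tested endoderm and of 5 tested trophoblast markers 4 each rose and 1 each fell, and of 5 tested neural markers 1 rose and 3 fell, in each genotype. Afp was at 0 counts in all 12 libraries, and Col3a1 and Lox in all 6 libraries of day 0. In bulk RNA, more cells of a type and more RNA per cell cannot be told apart.

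The upstream sequences below are shown because they belong to a gene that rose, a pair that rose from a shared stretch, and a gene that fell. They are from RefSeq (GRCm38.p6), 5′ to 3′ on the strand of the named gene, and no annotated exon covers them. Capitals mark the letters TGCCGC or, on the other strand, GCGGCA, the core that Zfp57 is known to read when it is methylated. The Mest stretch ends at the start of the transcript Mest-211, whose counts were 96.9% to 99.5% of the gene's counts in the 4 groups. The Peg3 stretch is the whole gap of 146 bases between the starts of Peg3 and of Usp29, which is transcribed the other way.
Mest, chr6:30737800-30738049, plus strand: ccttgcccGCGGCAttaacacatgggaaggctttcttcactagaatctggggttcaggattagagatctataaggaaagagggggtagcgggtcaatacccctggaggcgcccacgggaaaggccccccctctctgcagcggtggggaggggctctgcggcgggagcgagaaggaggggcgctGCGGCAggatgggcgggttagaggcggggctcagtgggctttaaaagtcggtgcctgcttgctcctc
Peg3, chr7:6730432-6730577, minus strand: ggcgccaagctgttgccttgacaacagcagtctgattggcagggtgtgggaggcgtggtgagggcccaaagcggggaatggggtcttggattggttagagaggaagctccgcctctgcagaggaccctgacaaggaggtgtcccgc
Grb10, chr11:12037421-12037670, minus strand: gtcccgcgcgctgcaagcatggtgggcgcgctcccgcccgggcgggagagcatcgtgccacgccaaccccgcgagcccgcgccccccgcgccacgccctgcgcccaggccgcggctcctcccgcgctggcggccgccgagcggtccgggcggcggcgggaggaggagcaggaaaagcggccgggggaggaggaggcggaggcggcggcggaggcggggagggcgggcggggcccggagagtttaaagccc
The Mest stretch holds 2 matches and 14 CpG sites, the Peg3 stretch 0 matches and 5 CpG sites, and the Grb10 stretch 0 matches and 40 CpG sites. Over windows of 250 bases upstream of the start, the letters stood in 8.68% of 32851 RefSeq promoters, whose median was 6 CpG sites. Of 7 of the genes with such a window, Mest and Plagl1 held a match. Some of these genes have several windows and count if any matches, so this cannot be set against the share of promoters. The longest stretch of the Plagl1 window that no annotated exon covers held 0 matches. A match is a description of letters, not a measured binding site.

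The main comparison is between days, which asks how these genes moved as the ES cells left the undifferentiated state. Mest, Peg10, Sgce, Peg3, Nnat, Impact, Snrpn and Igf2r rose in each genotype, Grb10 fell in each, and Plagl1 did not pass the test in either. The rises ran from 1.31-fold for Igf2r in labelled knockout cells to 50.7-fold for Peg3 in the same cells. Thus 8 of the 10 genes were called higher, where 32.9% of the 19235 genes tested were called higher in wild type and 31.1% in labelled knockout cells, and 1 of 10 was called lower, where 32.1% and 32.3% were. The median log2 difference of the 10 genes was 2.58 in wild type and 2.57 in labelled knockout cells, and that of all genes tested was 0.01 and -0.02. Calls are at an adjusted p of at most 0.05 (edgeR quasi-likelihood test, Benjamini-Hochberg over all genes tested). SE is the standard error of a log2 difference, taken as the size of the difference over the square root of the edgeR F statistic. It becomes unreliable for a difference very near 0.

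**Figure D1:**
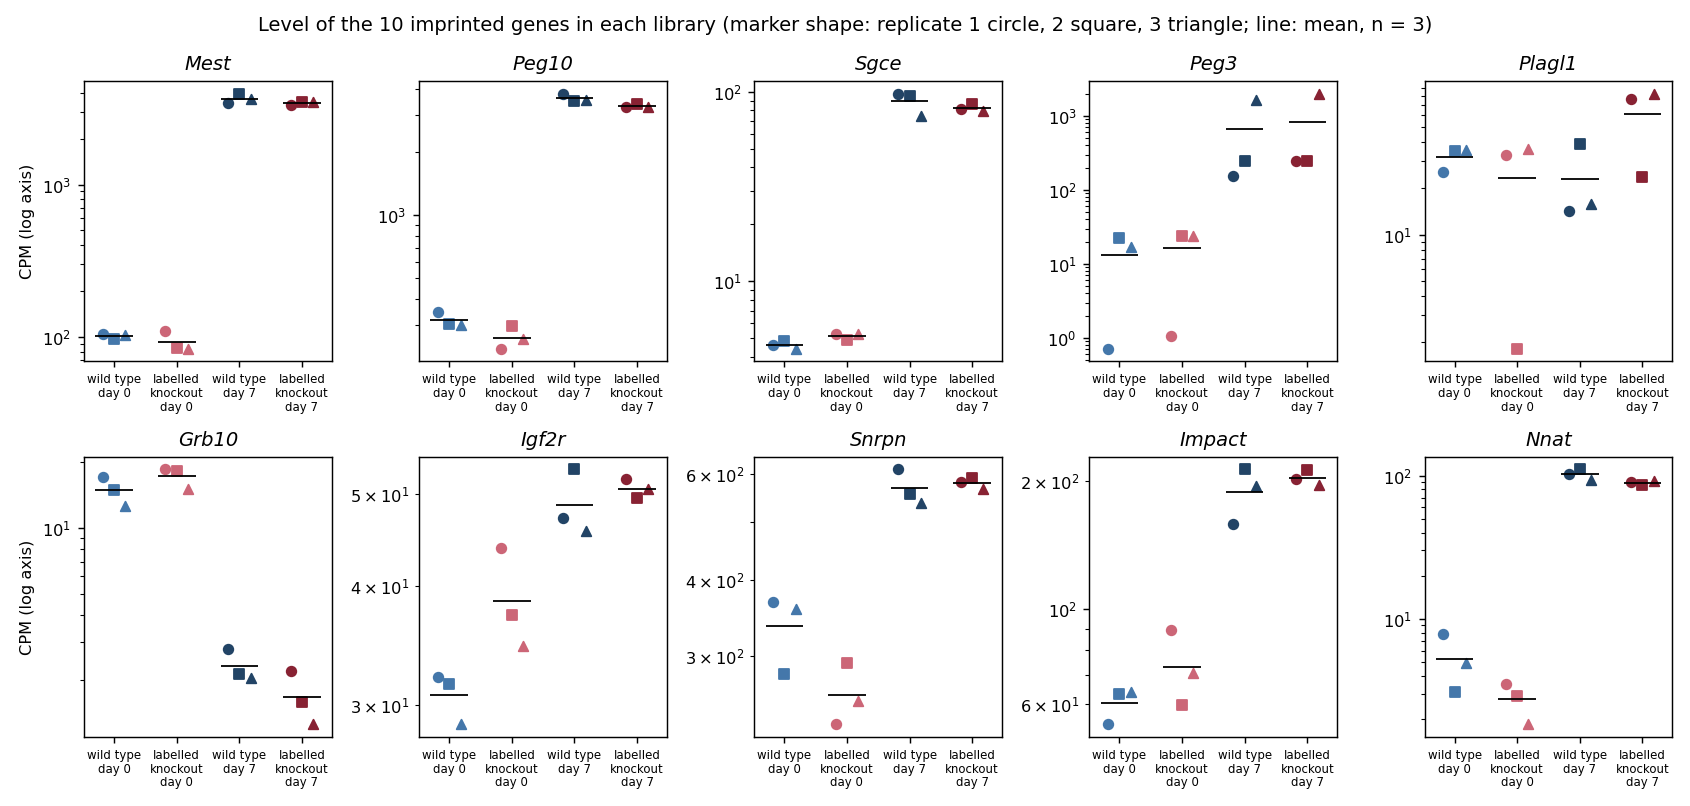
Level of each of the 10 genes in CPM (log axis) in the 12 libraries, by group. Points are libraries, with the shape giving the replicate number, and lines are means of 3. The day 7 points stand above the day 0 points for Mest, Peg10, Sgce, Peg3, Igf2r, Snrpn, Impact and Nnat, and below them for Grb10. Peg3 and Plagl1 spread widely within groups.

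Mest (mesoderm-specific transcript, a predicted hydrolase of the endoplasmic reticulum, chr6:30723547-30748465) was at 104, 97.3 and 102 CPM in wild type and 109.7, 84.0 and 83.7 CPM in labelled knockout libraries at day 0. At day 7 it was at 3404, 3939.7 and 3655 CPM in wild type and 3313, 3486.5 and 3504 CPM in labelled knockout libraries. The days lie far apart and the genotypes overlap on each. The log2 rise was 5.18 (SE 0.12, adjusted p = 6.31e-11) in wild type and 5.22 (SE 0.12, adjusted p = 5.98e-11) in labelled knockout cells, or 36.3-fold and 37.1-fold. Per kilobase of exon, Mest became the highest of the 10 at day 7, with 929 ± 67.9 CPM per kilobase (SD, n = 3) in wild type cells.

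Peg10 (a gene derived from a retrotransposon and needed in the placenta, chr6:4747306-4760517) and Sgce (epsilon-sarcoglycan, a membrane protein of the dystrophin-associated complex, chr6:4674350-4747207) face away from each other, with 98 bases between their annotated starts. Both rose. Peg10 was at 344, 303 and 299 CPM in wild type and 231, 295 and 256 CPM in labelled knockout libraries at day 0. At day 7 it was at 3792, 3516 and 3546 CPM and at 3269, 3406 and 3276 CPM. Every labelled knockout library was thus below every wild type library on both days in the whole-genome table. In the sum of the genome-split table the genotypes overlapped for Peg10 on both days. The log2 rise was 3.52 (SE 0.10, adjusted p = 2.13e-10) and 3.67 (SE 0.10, adjusted p = 1.73e-10). Sgce was far lower, at 4.41 to 5.25 CPM over the 6 libraries of day 0, and reached 97.8, 95.2 and 75.0 CPM in wild type and 81.7, 86.4 and 79.5 CPM in labelled knockout libraries at day 7. Its log2 rise was 4.27 (SE 0.12, adjusted p = 2.77e-10) and 4.01 (SE 0.12, adjusted p = 4.22e-10). Their levels per kilobase thus differed by far more than the spread between libraries although the starts are close, at 543 ± 22.7 for Peg10 and 8.42 ± 1.18 for Sgce in wild type cells at day 7 (CPM per kilobase, SD, n = 3).

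Nnat (neuronatin, a small membrane protein encoded within an intron of Blcap, chr2:157560078-157562522) was at 7.79, 3.06 and 4.93 CPM in wild type and 3.51, 2.88 and 1.83 CPM in labelled knockout libraries at day 0. It reached 102, 110.3 and 93.3 CPM and 90.9, 86.0 and 91.4 CPM at day 7. The rise was 19.6-fold in wild type (log2 4.29, SE 0.32, adjusted p = 4.34e-07) and 32.9-fold in labelled knockout cells (log2 5.04, SE 0.33, adjusted p = 1.71e-07). Its host Blcap, a gene linked to apoptosis, rose too, by 1.20 on the log2 scale in wild type and 1.04 in labelled knockout cells (adjusted p = 6.27e-06 and 1.86e-05). The authors' use of strand is not given in the sources used here, so reads of genes that overlap on opposite strands cannot be told apart.

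Snrpn (a protein of the splicing machinery, chr7:59982495-60140219), the highest of the 10 per kilobase at day 0 (156 ± 22.5 CPM per kilobase in wild type, SD, n = 3), was at 369, 280.1 and 359 CPM in wild type and 231, 292 and 252 CPM in labelled knockout libraries at day 0. At day 7 it was at 610.2, 557 and 536 CPM and at 582, 590.4 and 565 CPM. Its log2 rise was 0.76 (SE 0.11, adjusted p = 0.000111) in wild type and 1.17 (SE 0.11, adjusted p = 3.90e-06) in labelled knockout cells. Snurf, which is read from the same transcripts, had no allele-resolved read, so Snrpn values can include its reads. Impact (an inhibitor of the Gcn2 pathway of translation control, chr18:12955852-12992950) rose from 53.6, 63.3 and 64.0 CPM to 158, 213 and 194 CPM in wild type and from 89.3, 59.4 and 70.8 CPM to 202, 212 and 196 CPM in labelled knockout libraries. The log2 rise of Impact was 1.64 (SE 0.15) and 1.47 (SE 0.15), with adjusted p = 2.51e-06 and 5.98e-06 (edgeR).

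The receptor Igf2r (it takes up Igf2 and mannose 6-phosphate proteins for breakdown, chr17:12682406-12769664) showed the smallest rise of those called. It was at 32.1, 31.6 and 28.6 CPM in wild type and 43.8, 37.3 and 34.6 CPM in labelled knockout libraries at day 0, and at 47.2, 53.0 and 45.7 CPM and 51.8, 49.5 and 50.6 CPM at day 7. The log2 rise was 0.66 (SE 0.11, adjusted p = 0.000214) and 0.39 (SE 0.11, adjusted p = 0.00692). Airn, the antisense RNA known to silence the paternal Igf2r copy, overlaps Igf2r and moved from 0.11 ± 0.12 to 15.4 ± 3.96 CPM in wild type cells and from 0.083 ± 0.073 to 16.5 ± 0.44 CPM in labelled knockout cells (SD, n = 3). The adapter protein Grb10, which restrains insulin and growth factor signalling (chr11:11930508-12038683), was the gene that fell. It went from 17.1, 14.9 and 12.6 CPM to 2.80, 2.14 and 2.05 CPM in wild type and from 18.5, 18.3 and 15.04 CPM to 2.20, 1.59 and 1.26 CPM in labelled knockout libraries. This was a 6.37-fold and a 10.2-fold fall (log2 -2.67, SE 0.23, and -3.35, SE 0.24, with edgeR adjusted p = 1.34e-06 and 2.86e-07).

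Peg3 (a large zinc finger protein known for its role in maternal care and growth, chr7:6703892-6730431) rose in both deposited gene tables, but the size of the rise in the whole-genome table rests on single libraries. In the whole-genome table it was at 0.719, 22.5 and 16.7 CPM in wild type and 1.06, 23.7 and 24.2 CPM in labelled knockout libraries at day 0, and at 154, 250 and 1620.4 CPM and 249, 246 and 1994 CPM at day 7. Replicate 1 was low in both groups of day 0, and replicate 3 was high in both groups of day 7. The log2 rise was 5.64 (SE 1.54, adjusted p = 0.00737) in wild type and 5.66 (SE 1.54, adjusted p = 0.00742) in labelled knockout cells. Without replicate 3 of day 7 it was 3.91 (adjusted p = 0.0303) and 3.92 (adjusted p = 0.0304), and over all libraries left out in turn it ran from 3.91 to 6.26 in wild type and from 3.92 to 6.10 in labelled knockout cells. The same libraries, read from the sum of the genome-split table, gave 15.9, 8.70 and 8.33 CPM and 14.8, 16.0 and 10.4 CPM at day 0, and 580, 926 and 634 CPM and 1123, 1057 and 1032 CPM at day 7. On that sum the log2 rise was 6.03 (SE 0.30, adjusted p = 1.05e-08) and 6.29 (SE 0.30, adjusted p = 8.51e-09). The highest library of a group was 8.09 to 31.3 times the lowest in the whole-genome table and 1.09 to 1.90 times the lowest in the split sum. The counts of the transcript Peg3-201 were 98.3% and 98.5% of the gene's counts at day 7, but 0% and 0.662% at day 0. No other annotated Peg3 transcript held a large part in any group, so most Peg3 counts of day 0 were in none of them. How those counts arose was not tested. Usp29, which starts 146 bases away, rose by 5.64 and 5.38 on the log2 scale (SE 0.31 and 0.30, edgeR adjusted p = 3.31e-08 and 4.54e-08).

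Plagl1 (a zinc finger protein that restrains the cell cycle, chr10:13060504-13131694) gave no stable level. The whole-genome table put it at 25.7, 34.9 and 35.4 CPM in wild type and 32.8, 1.82 and 35.9 CPM in labelled knockout libraries at day 0, and at 14.3, 38.7 and 15.9 CPM and 75.9, 23.8 and 82.5 CPM at day 7. The split sum put it at 26.7, 6.18 and 3.96 CPM and 31.4, 3.92 and 37.0 CPM at day 0, and at 15.7, 93.2 and 29.8 CPM and 31.0, 32.5 and 21.7 CPM at day 7. The log2 difference between days was -0.48 (SE 0.79, adjusted p = 0.615) in wild type and 1.37 (SE 0.80, adjusted p = 0.157) in labelled knockout cells from the first table, and 1.93 (SE 0.88, adjusted p = 0.0723) and 0.23 (SE 0.85, adjusted p = 0.825) from the second. The groups overlapped in both tables, and in wild type the sign turned. The counts of the transcript Plagl1-202 were 86.4% to 99.4% of the gene's counts in the 4 groups, and it was at 0 CPM in at least 1 library of 2 of them. Such a disagreement was not rare: of 14088 genes with a mean count of at least 50, 2658 (18.9%) differed by more than 2-fold between the tables in some library.

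**Figure D2:**
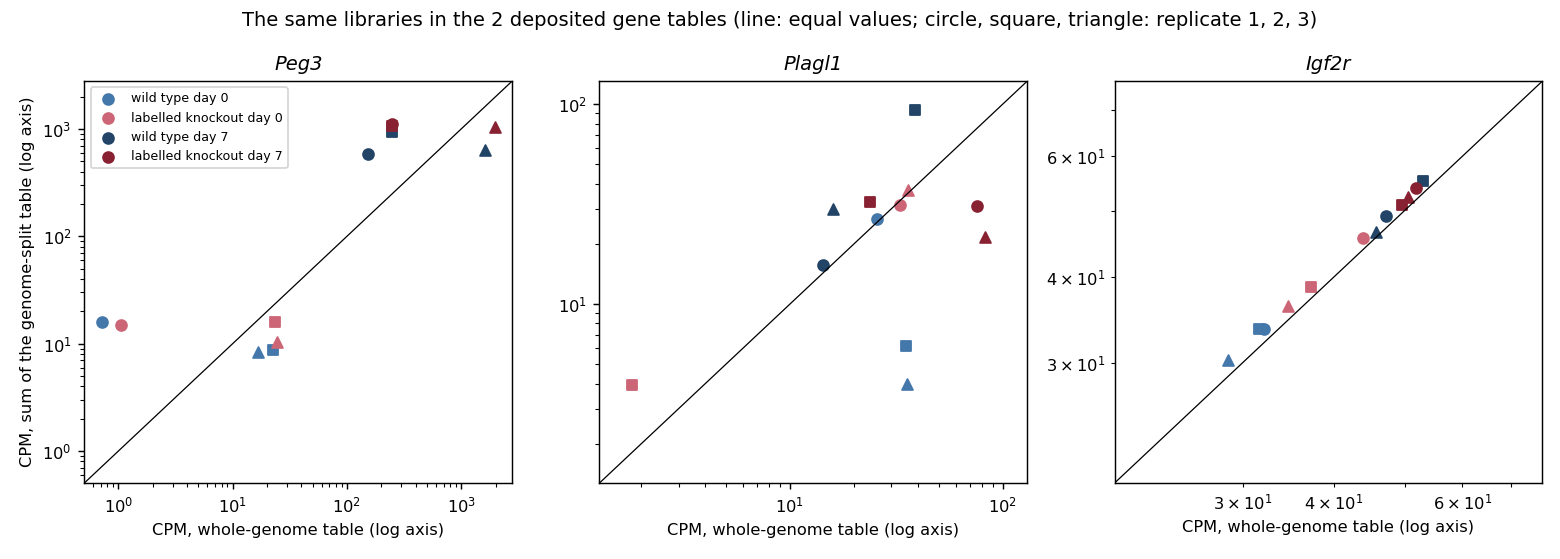
CPM of Peg3, Plagl1 and Igf2r in each library, from the whole-genome table (x, log axis) and from the sum of the genome-split table (y, log axis). The line marks equal values. Igf2r points lie along the line, while Peg3 and Plagl1 points lie away from it in both directions.

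Between genotypes, which asks whether the Sirt7 genotype moved these genes, 0 of 10 were called at day 0, where 0.13% of all genes were called, and 0 of 10 at day 7, where 0.026% were (edgeR). At an unadjusted p under 0.05 there were 4 at day 0, where 11.9% of all genes stood, and 0 at day 7, where 8.18% did, and DESeq2 called 0 on either day. The 4 were Peg10, Snrpn and Nnat, lower in labelled knockout cells by -0.27, -0.38 and -0.94 on the log2 scale, and Igf2r, higher by 0.33, with adjusted p = 0.275, 0.241, 0.279 and 0.281. On the split sum Nnat and Igf2r stayed under that unadjusted limit at day 0 (-0.96 and 0.31), Peg10 and Snrpn did not (-0.10 and -0.21), and at day 7 Peg3 (0.58, unadjusted p = 0.0323) and Snrpn (-0.26, unadjusted p = 0.0248, edgeR) came under it, with 0 called. In the whole-genome table all libraries were apart between genotypes at day 0 for Peg10, Sgce and Igf2r, and at day 7 for Peg10 and Nnat. On the split sum they were apart at day 0 for Sgce and Igf2r, and at day 7 for Sgce, Peg3, Snrpn and Nnat. The precision sets what these data could show. The 95% interval of the log2 difference (taken on 8 residual degrees of freedom) was -0.36 to 0.10 for Mest at day 0 and -0.32 to 0.13 at day 7, but -2.73 to 3.29 and -2.60 to 3.19 for Peg3. For Plagl1 it was -2.26 to 1.38 and -0.44 to 3.24. The change over days did not differ between genotypes for any of the 10 at the threshold (interaction term, 0 of 10 called, where 0.026% of all genes were, and 2 of 10, Grb10 and Snrpn, at an unadjusted p under 0.05, where 6.86% of all genes stood). The interaction was -0.68 (SE 0.31) for Grb10 and 0.41 (SE 0.16) for Snrpn. On the split sum it was -0.88 (SE 0.43) for Grb10 and turned to -0.058 (SE 0.15) for Snrpn, neither under that limit, while Sgce came under it (-0.32, SE 0.12, edgeR adjusted p = 0.695).

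**Figure D3:**
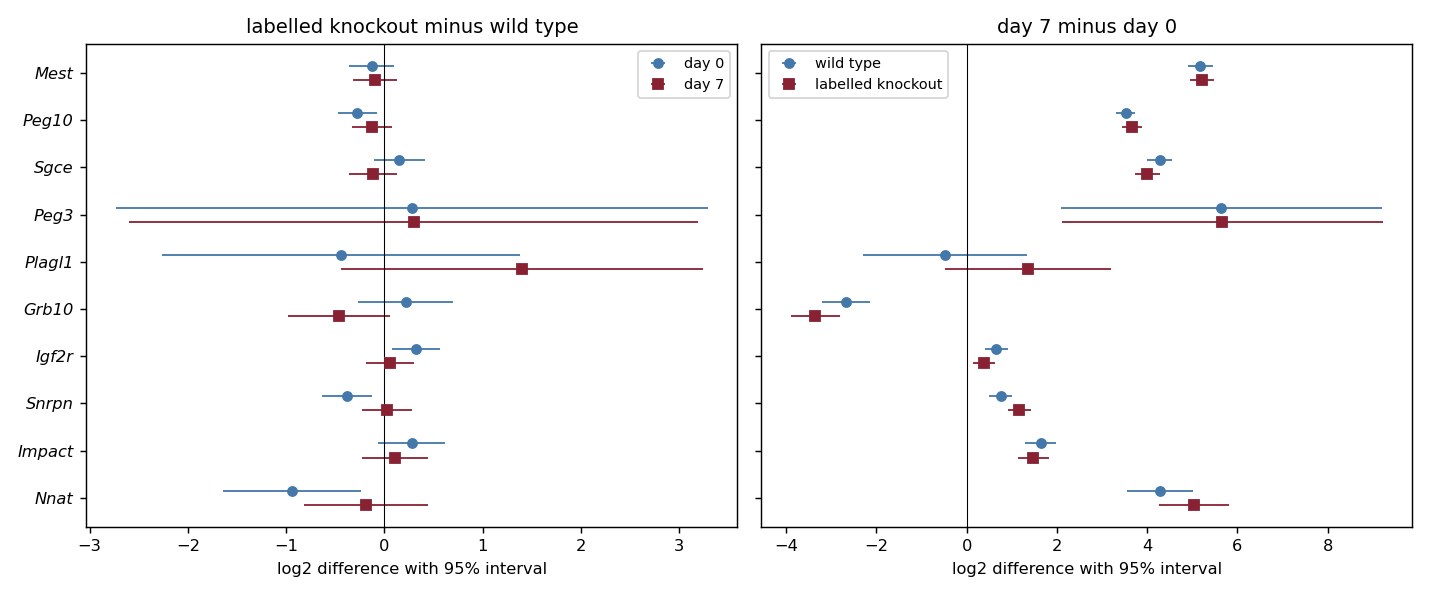
Log2 difference of each gene between genotypes on each day (left, labelled knockout minus wild type) and between days in each genotype (right, day 7 minus day 0), from the whole-genome table. Points are edgeR estimates and bars 95% intervals. On the left the day 0 intervals exclude 0 for Peg10, Igf2r, Snrpn and Nnat, none of them called after adjustment, and all other intervals include 0. The right-hand ones exclude 0 for every gene but Plagl1, and the intervals of Peg3 and Plagl1 are the widest.

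Where the reads came from is given as the genome 2 share, the percentage of allele-resolved reads (genome 1 plus genome 2) that were genome 2. Read as such, the 10 genes fell into those with reads of genome 1 almost alone (Mest, Peg3, Plagl1, Grb10, Igf2r and Nnat), those with reads of both (Peg10, Sgce and Snrpn), and Impact between them. A share near 0 cannot be read as imprinting in these cells without the neighbours. Of 9038 autosomal genes that had 20 or more such reads in each of the 12 libraries, 45.8% had under 5% genome 2 reads and 30.7% had 30% to 70%, limits that were chosen after the values were seen. Each gene is therefore set beside the median share of up to 20 nearest genes within 5 Mb that are on neither list of imprinted genes used here.

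**Figure D4:**
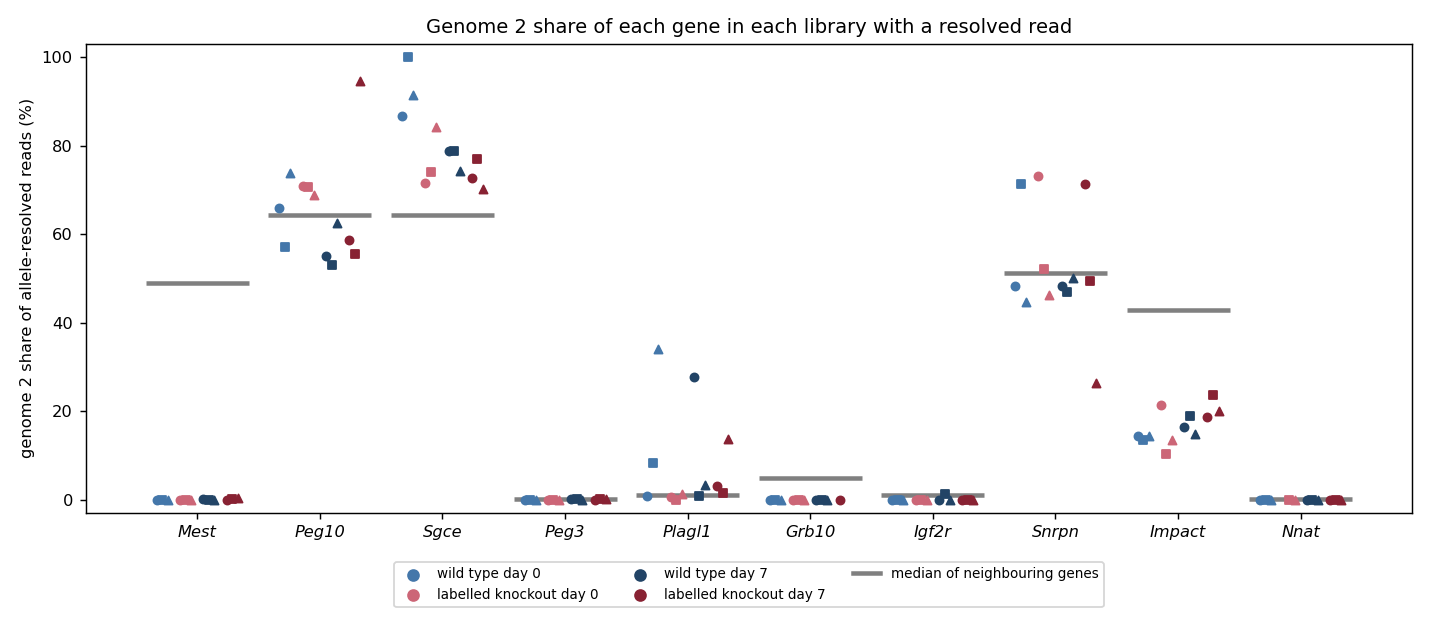
Genome 2 share (%) of each gene in each library with a resolved read, by group (colour) and replicate (shape), with the median share of its neighbours as a grey bar. Mest, Peg3, Grb10, Igf2r and Nnat lie at or near 0, Peg10, Sgce and Snrpn between 26.5% and 100%, and Impact between 10.3% and 23.6%.

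The share of Mest stands apart from most genes before it, while the nearest gene and those beyond it were low too. Over the 12 libraries 73675 reads were of genome 1 and 41 of genome 2, a share of 0.056%, with 8 libraries at 0. At day 0 it was 0 of 307 reads in wild type, which allows a share of up to 0.977%, and 0 of 1454 in labelled knockout cells, which allows up to 0.206%. Such limits treat the deposited counts, which are estimates, as separate reads. The part of a gene's counts given to a genome varied by library. It ran from 4.46% to 33.4% for Mest, 3.74% to 71.4% for Peg3 and 11.3% to 89.6% for Plagl1, and the cause was not tested. The 20 neighbours of Mest had a median share of 48.9%. They were not alike on both sides. Tmem209, Klhdc10, Zc3hc1 and Ube2h, which start 0.245 to 0.512 Mb before Mest, were at 53.3%, 50.4%, 44.6% and 47.5%. Cep41, the nearest (0.0701 Mb before it), was at 0%. On the far side the neighbours were Gm13835, Mkln1 and Podxl, at 1.67%, 11.1% and 0.094%. Most of the 20 start before Mest, so the median describes mainly that side. Copg2, known mainly as expressed from the maternal copy, overlaps the end of Mest, and its 1628 resolved reads were all of genome 1. Mest and Copg2, with opposite known parents, gave reads of the same genome. Strand use is not given and the 2 genes overlap, so reads counted for Copg2 can include reads of Mest. Mest was called toward genome 1 in all 4 groups (edgeR adjusted p from 0.000305 to 0.00337).

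Peg3 had 85819 genome 1 and 41 genome 2 reads (0.048%), Igf2r 2750 and 8 (0.290%), Nnat 933 and 0, and Grb10 257 and 0. Their neighbours had median shares of 0.048%, 1.13%, 0.149% and 4.97%. Single neighbours stood apart from these medians: Zfp954 near Peg3 was at 81.1%, Qk near Igf2r at 34.9%, Ctnnbl1 and Rab5if near Nnat at 100% and 96.9%, and Igfbp3 and Akt2-ps near Grb10, which had only 8 neighbours, at 71.3% and 85.8%. Of the neighbours of Peg3, Igf2r, Nnat and Grb10, 15 of 20, 14 of 20, 12 of 20 and 4 of 8 were under 5%. Few reads were behind some of these shares. For Grb10 a count of 0 allows a share of up to 3.06% and 2.65% at day 0 but 8.82% and 25% at day 7, where 2 labelled knockout libraries had no resolved read. For Nnat it allows up to 15.8% and 42.9% at day 0, and 0.517% and 0.917% at day 7 (wild type, then labelled knockout). Maternally expressed Igf2r and Grb10 and paternally expressed Peg3 and Nnat all gave genome 1. Airn, known from the paternal copy, also gave genome 1 reads, 421 against 3 genome 2 reads in wild type and 270 against 0 in labelled knockout cells at day 7. It overlaps Igf2r, so reads of these 2 genes cannot be fully told apart. Plagl1 had 8313 genome 1 and 140 genome 2 reads (1.66%), with a median of 0.978% over 14 neighbours. Of these, 9 were under 5% and 4 between 30% and 70%, among them the nearest, Sf3b5, at 35.6%. Its own share was 34.0% in wild type replicate 3 at day 0 and 27.6% in wild type replicate 1 at day 7, libraries that had only 53 and 76 resolved reads. Igf2r and Plagl1 were called toward genome 1 in all 4 groups, as were 5253 to 5349 of 9344 genes by group (edgeR adjusted p from 0.00359 to 0.00561 and from 0.00264 to 0.0338). For Plagl1 the call in wild type cells was lost without replicate 1 or 2 at day 0 (adjusted p = 0.186 and 0.0934) and without replicate 2 or 3 at day 7 (adjusted p = 0.0757 and 0.0610).

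**Figure D5:**
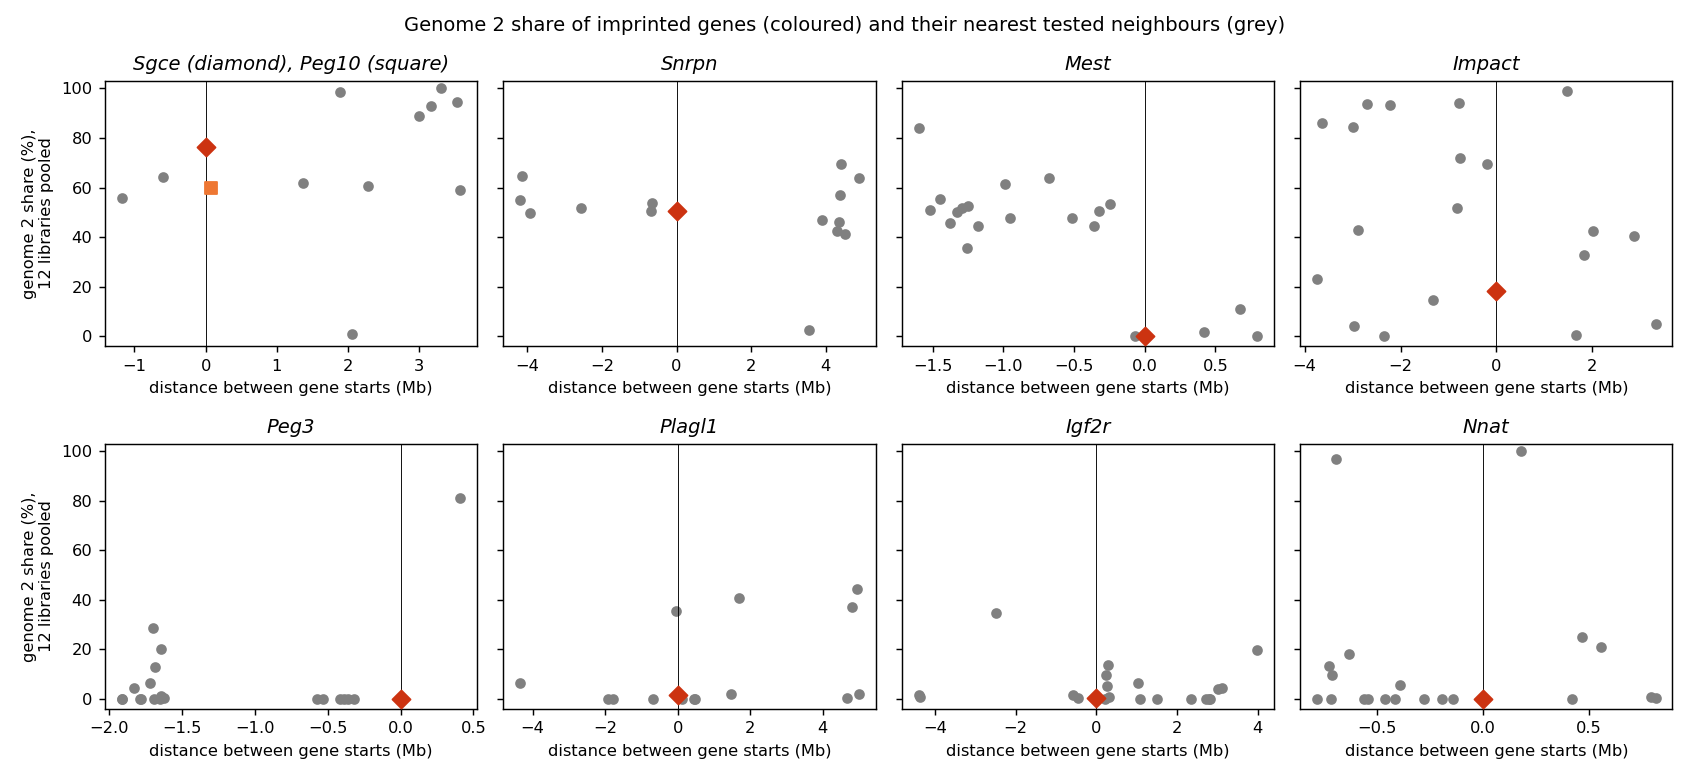
Genome 2 share (%), pooled over 12 libraries, of 9 of the genes (coloured, distance 0 or, for Peg10, beside Sgce) and of their nearest tested neighbours (grey) by the distance between gene starts in Mb. Mest stands where the neighbours go from about the middle of the scale to near 0. Snrpn sits among neighbours near 50%, and most neighbours of Peg3, Igf2r, Plagl1 and Nnat are near 0.

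Snrpn was read from both genomes, with 19004 genome 1 and 19281 genome 2 reads, a share of 50.4% where its 14 neighbours had a median of 51.2%. These include Snhg14, a transcript of the same imprinted domain, and Gm44829 inside it, and the median of the other 12 was 50.7%. By library the share was 48.2%, 71.3% and 44.7% in wild type and 73.2%, 52.0% and 46.2% in labelled knockout cells at day 0, and 48.2%, 46.9% and 50.2% and 71.4%, 49.3% and 26.5% at day 7. No group was called imbalanced, where 75.1%, 74.9%, 76% and 75.9% of 9344 genes were called in wild type and labelled knockout cells at day 0 and at day 7 (edgeR, genome 2 against genome 1, with the library as a block). The log2 ratio of genome 2 to genome 1 ran from -0.09 to 0.44 over the groups (SE 0.49 to 0.52). Other genes of the same imprinted domain were read from both genomes too. Ndn was at 52.9%, Peg12 at 55.3% and maternally expressed Ube3a at 49.1%, with no call in any group. Magel2, Mkrn3 and Atp10a, which had too few reads in some libraries for the test, were at 35.2%, 43.4% and 63.3%.

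Peg10 and Sgce were read from both genomes, with more genome 2 reads. Peg10 had 39918 genome 1 and 58979 genome 2 reads (59.6%). Its share was 65.8%, 57.0% and 73.9% in wild type and 70.9%, 70.7% and 68.9% in labelled knockout libraries at day 0, and 55.0%, 53.1% and 62.6% and 58.7%, 55.6% and 94.7% at day 7. Labelled knockout replicate 3 at day 7 stood alone, with 416 genome 1 reads where the other 2 libraries of its group had 6439 and 5839. With edgeR no group was called imbalanced for Peg10, with log2 ratios of 0.40 to 1.51 (SE 0.57 to 0.65). In the labelled knockout group of day 7 DESeq2 called it (adjusted p = 0.0159), as did edgeR with the replicate block (adjusted p = 0.0271). There edgeR's adjusted p was 0.0558, 0.145 without replicate 3, and 0.0330 and 0.0225 without replicates 1 and 2.

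Sgce had 3408 genome 1 and 11099 genome 2 reads (76.5%), in every library more than its genome 1 reads. Its share was 86.7%, 100% and 91.5% in wild type and 71.6%, 74.2% and 84.1% in labelled knockout libraries at day 0, and 78.9%, 78.8% and 74.3% and 72.7%, 77.0% and 70.3% at day 7. The 3 wild type libraries of day 0 were above all others, on 60 to 108 resolved reads. Imbalance was called in all 4 groups, where 74.9% to 76% of 9344 genes were called. The log2 ratios were 3.94, 1.74, 1.78 and 1.47 (edgeR adjusted p = 0.000394, 0.0105, 0.00590 and 0.0132) in wild type and labelled knockout cells at day 0, then at day 7. The call was lost without labelled knockout replicate 3 at day 0 (adjusted p = 0.0621) and without labelled knockout replicate 2 at day 7 (adjusted p = 0.0663). The 11 neighbours of this pair had a median pooled share of 64.3%, from 0.704% to 100%, with 5 of them at 30% to 70%. Taken library by library, their median was 74.8% on average (SD 7.24 over libraries). Casd1, next to Sgce, was at 62.6%. Ppp1r9a, on the other side of Peg10 and known mainly from the maternal copy, was at 42.5%.

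Impact had 13551 genome 1 and 3006 genome 2 reads (18.2%), so that genome 2 reads were the minority in every library. Its share was 14.3%, 13.6% and 14.3% in wild type and 21.4%, 10.3% and 13.5% in labelled knockout libraries at day 0, and 16.4%, 18.9% and 14.8% and 18.6%, 23.6% and 19.9% at day 7. All 4 groups were called toward genome 1, as were 5253 to 5349 of 9344 genes by group. The log2 ratios of Impact were -2.61, -2.54, -2.32 and -1.94 (SE 0.21 to 0.22, edgeR adjusted p from 6.19e-06 to 3.40e-05). Its 19 neighbours had a median share of 42.9% but ran from 0.256% to 99.0%, and its nearest, Osbpl1a, was at 69.7%.

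The allelic balance itself was tested between genotypes for the 7 genes with 20 or more resolved reads in each library (Peg3, Grb10 and Nnat had fewer in some). None was called, which does not show equal balance, since the precision was limited. At day 0 and day 7 the SE of the log2 difference was 0.81 and 0.86 for Peg10 and 0.71 on both days for Snrpn. It was 1.998 for Plagl1 at day 0, while at day 7 its log2 difference (0.0055) was too near 0 to give a usable SE. For Impact it was smaller, at 0.30 and 0.29. Mest and Igf2r had too few genome 2 reads for an estimate. At day 0, 0 of 7 were called, where 0% of 9344 genes were, with 290 of these genes at an unadjusted p under 0.05 and 14 genes called by DESeq2. Sgce was the 1 of the 7 at an unadjusted p under 0.05 there (log2 difference -2.20, SE 0.81, adjusted p = 1). At day 7, 0 of 7 were called, where 0.0321% of all genes were, and 0 were at an unadjusted p under 0.05. Between days 0 of 7 were called in wild type, where 3.67% of all genes were, and 0 of 7 in labelled knockout cells, where 2.99% were. For Sgce in wild type the log2 difference between days was -2.16 (SE 0.77, edgeR adjusted p = 0.228), and DESeq2 called it (-2.22, adjusted p = 0.0331).

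Among other imprinted genes, listed for comparison, 34 of 39 in the table could be tested. Of these, 0 were called between genotypes on either day (edgeR), where 0.13% of all genes were at day 0 and 0.026% at day 7. In wild type 21 rose and 5 fell between days, where 32.9% and 32.1% of all genes did. In labelled knockout cells 17 rose and 7 fell, where 31.1% and 32.3% of all genes did. By the smallest adjusted p these were Ndn, a growth suppressor of the Snrpn domain (31.2 ± 3.93 to 274 ± 12.1 CPM in wild type, SD, n = 3), Gnas, which encodes the stimulatory G protein alpha subunit (215 ± 28.6 to 1701 ± 50.7 CPM), Magel2, a ubiquitin ligase cofactor (0.380 ± 0.139 to 30.5 ± 6.19 CPM), and Usp29 (1.61 ± 0.64 to 79.1 ± 6.60 CPM). In labelled knockout cells H13, a signal peptide peptidase, took the place of Usp29 (20.5 ± 2.48 to 72.0 ± 3.27 CPM). The median log2 difference of the list was 1.41 in wild type and 1.03 in labelled knockout cells.

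Of 19 such genes with enough allele-resolved reads, 8 had neighbours read from both genomes, meaning a median pooled share of 30% to 70%. There Gnas gave 99.5% genome 2 reads (99.1% to 100% by library) where its 20 neighbours had a median of 52.3%. These neighbours ran from 8.69% to 99.8%, with 14 of 20 at 30% to 70%. Copg2 gave 0%, but it overlaps the end of Mest, where the nearest and far-side neighbours were low too. Inpp5f was at 77.8%, Sfmbt2 at 67.4%, and the remaining 4 (Casd1, Peg12, Ndn and Ppp1r9a) between 42.5% and 62.6%. Gnas was called toward genome 2 in all 4 groups, as were 1664 to 1839 of 9344 genes by group. Of 9 with neighbours read from genome 1, Peg13, Trappc9, Blcap, Zrsr1, Mcts2 and Usp29 were under 5%, Phactr2 was at 9.98%, and Zdbf2 and H13 gave 41.1% and 24.02% genome 2 reads although their neighbours had medians of 0.081% and 0.2997%. Zdbf2 ran from 12.9% to 81.9% by library (pooled, 28.03% in wild type and 23.2% in labelled knockout cells at day 0, and 63.4% and 40.4% at day 7), and H13 from 16.7% to 42.6%. Ube3a and Cobl (1.27%) had few neighbours. Usp29 was the 1 of the 19 whose balance was called between days, in both genotypes, where 3.67% of all genes were called in wild type and 2.99% in labelled knockout cells. Its log2 difference was -3.96 (SE 0.79) and -4.39 (SE 0.82), with edgeR adjusted p = 0.0202 and 0.0152. Its share fell from 11.1% to 0.988% in wild type and from 10% to 0.567% in labelled knockout cells, while its genome 2 reads at day 0 were only 10 in each group.

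Of 18 genes that maintain or remove imprint methylation, 4 rose and 9 fell over days in each genotype (edgeR). Of all genes tested, 32.9% rose and 32.1% fell in wild type, and 31.1% rose and 32.3% fell in labelled knockout cells. Between genotypes 0 of the 18 were called, where 0.13% of all genes were at day 0 and 0.026% at day 7. The strongest by adjusted p were Zfp42 (495 ± 35.9 to 1.48 ± 0.73 CPM in wild type, SD, n = 3), a pluripotency zinc finger protein that is also among the pluripotency markers, Dnmt3l (228 ± 23.6 to 4.32 ± 0.50 CPM), the cofactor that sets germ line imprints, Trim28 (4187 ± 209 to 1268 ± 92.5 CPM) and Uhrf1 (329 ± 24.4 to 188 ± 8.43 CPM). Zfp57, named here after its values were seen because it reads the letters shown above, fell by 3.02 on the log2 scale in wild type and by 2.37 in labelled knockout cells (edgeR adjusted p = 0.000139 and 0.000701). The list's median log2 difference was -0.45 in wild type and -0.56 in labelled knockout cells. Its members that rose in both genotypes were Dnmt1, Smchd1, Arid4b and Tet3. The same libraries that gained Mest, Peg10 and Nnat thus held less Zfp42 and Dnmt3l RNA, and most listed markers of mesoderm, fibroblasts and trophoblast were higher in them. The part of these in the levels of the imprinted genes was not tested.

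For each of the 10, the other gene whose log2 CPM followed it most closely over the 12 libraries is given as a description, since all share the step between days. It was Csf1 for Mest (r = 0.9997), Tspan9 for Peg10 (0.999), Flnc for Sgce (0.999), Pip4p2 for Impact (0.997), H19 for Nnat (0.997) and Trim25 for Grb10 (0.993). Psors1c2 followed Snrpn (0.987), Glis2 followed Igf2r (0.984), Pigu followed Peg3 (0.960) and Kif16b followed Plagl1 (0.889). H19 is itself an imprinted RNA that is known from the maternal copy.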

How the data were processed

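Polyadenylated RNA was sequenced per the labels. The submitters' processing notes name HISAT2 2.1.0 and StringTie 1.3.3 beside DESeq2 1.32.0, Trimmomatic 0.36, SAMtools 0.1.19 and FastQC 0.11.3, and give mm10 or GRCm38 as build. Settings, strand use and annotation release: not given in the sources used here. What the authors deposited are expected counts (estimated reads per gene or transcript, whole numbers, not normalized) for all reads and for genome 1, genome 2 and unassigned reads. These were tested as deposited in R 4.3.3 with edgeR 4.0.16. Expression used filterByExpr, TMM and 1 coefficient per group over 12 libraries (19235 genes). The allelic fit set genome 1 and genome 2 side by side for each library (9344 genes with 20 or more resolved reads in each). CPM are counts scaled to TMM library sizes. Positions are from GENCODE M21 (99.4% of identifiers matched). Limits for a count of 0 use 3 reads of the total and cover counting error only. The fits were tested on simulated data.

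The genes and lists were chosen with earlier results of these data known. Named genes were the 10, up to 4 per list and day comparison with the smallest adjusted p, listed imprinted genes with enough resolved reads, and the closest correlate (mean log2 CPM of at least 2). The lists of other cell types held markers of fibroblasts, mesoderm, endoderm, trophoblast and nerve cells. A treatment label (LIF or None) followed replicate and genotype, not day, and was used only as a covariate in an alternative. Alternatives were DESeq2 1.42.0, RLE scaling, no low-count filter, the compared groups alone, the replicate block, that covariate, minimums of 10 and 50 resolved reads, 10 neighbours and leaving out each library. The sum of the split table, and the neighbours of Snrpn without Snhg14 and Gm44829, were added after seeing the data.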

Additional observations from a re-analysis of the deposited data

How the results depend on the processing

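Of 260 alternative values of the 10 genes between days, 258 kept their direction and call. Plagl1 turned to 1.93 in wild type on the split sum, and passed in labelled knockout cells with the treatment label as covariate (1.64, adjusted p = 0.0293). Between genotypes 0 of 260 alternatives were called (lowest adjusted p = 0.0525). On the split sum the log2 difference turned to 0.095 for Mest and 0.99 for Plagl1 at day 0, and to -0.71 for Plagl1 and -0.26 for Snrpn at day 7.

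The number of all genes called between genotypes at day 0, 25 here, was 441 with DESeq2, 0 with the compared groups alone, 10 with the treatment covariate, 16 on the split sum and 6 to 55 with 1 library left out (55 without labelled knockout replicate 2 at day 0). At day 7, 5 became 163 with DESeq2, 9 with the compared groups alone and 5 to 13 with 1 library left out. The interaction, 5 here, gave 143 with DESeq2, 8 without the low-count filter, 8 on the split sum and 0 to 15 with 1 library left out. Allelic balance between genotypes gave 14 genes at day 0 and 16 at day 7 with DESeq2, and 0 to 4 on each day with 1 library left out. Between days DESeq2 gave 657 in wild type, against 343 here, and 513 in labelled knockout cells, against 279, and leaving out 1 library gave 215 to 382 in wild type. The replicate block gave 6, 2 and 0 genes for expression at day 0, at day 7 and in the interaction, and 1 for allelic balance at day 7. Same-numbered libraries deviated together with r of -0.024 to 0.061, so that the numbers are not shown to pair them. The block called Peg10 in labelled knockout cells at day 7 (1.61, adjusted p = 0.0271), as did DESeq2 (1.51, adjusted p = 0.0159). The causes were not tested.

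With 1 library left out, some differences that were not called changed sign. Between genotypes Peg3 ran from -0.26 to 0.89 at day 0 and from -1.45 to 2.04 at day 7, Plagl1 from -0.88 to 0.10 at day 0, and at day 7 Impact from -0.0029 to 0.20 and Snrpn from -0.015 to 0.083. The difference in allelic balance between genotypes ran from -0.34 to 0.64 for Snrpn and -0.28 to 0.34 for Impact at day 0, and at day 7 from -0.66 to 0.73 for Snrpn and -1.53 to 1.55 for Plagl1, which was -0.027 with DESeq2. Between days it ran from -0.69 to 0.12 for Snrpn and -2.53 to 0.88 for Plagl1 in wild type, and in labelled knockout cells from -1.19 to 0.20 for Snrpn, -0.49 to 0.044 for Sgce and -0.82 to 1.09 for Peg10. The log2 ratio of genome 2 to genome 1 of Snrpn ran from -0.21 to 0.60 in wild type and -0.054 to 0.78 in labelled knockout cells at day 0, and from -0.75 to 0.64 in the latter at day 7. With 10 neighbours in place of 20, the mean over libraries of their median share went from 47.8% to 43.8% for Mest, from 0.665% to 0.070% for Plagl1 and from 46.4% to 57.9% for Impact. Few resolved reads limit Grb10 on both days (12 to 113 in a group) and Nnat at day 0 (7 and 19).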
